A study of Homo sapiens with 8 samples.

Results

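The genes described here attach ubiquitin to proteins or take it off again. They were chosen by symbol: protein-coding genes named USP plus digits with or without a further letter, genes whose symbol starts with UBE2, UBE3 or with UBR plus a digit, and HERC1 to HERC6. Genes on the X and Y chromosomes were left out (8 genes met the rule there), which left 95 of 20050 protein-coding genes. These were 34 UBE2, 4 UBE3, 6 UBR, 6 HERC and 45 USP genes. Every m6A peak that overlapped the RefSeq bounds of one of them by at least 1 bp was taken, 235 of the 29084 wild-type peaks and 163 of the 23937 knockout peaks. No measured value entered the choice.

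Ubiquitin is a small protein that is joined to other proteins as a mark for degradation, transport or signalling. An activating enzyme (E1) primes it, a conjugating enzyme (E2, the UBE2 genes) carries it, and a ligase (E3) picks the target. UBE3 and HERC genes code for ligases, most of them with a HECT catalytic domain, and several UBR genes code for ligases of the N-degron pathway, which reads the first residues of a protein. The USP genes code for the largest family of deubiquitinases, proteases that cut ubiquitin off. The mark measured here, N6-methyladenosine (m6A), is a methyl group on adenosines of RNA, and METTL3 is the methyltransferase behind most of it.

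The material was RNA from the chromosome fraction of HEK293T cells, an established human embryonic kidney line. The wild-type group was the parental line and the other group had METTL3 knocked out (METTL3-/-), with no treatment in either. Whether the knockout line is 1 clone is not stated in the labels. The 8 samples form 4 groups of 2 replicates: input and m6A immunoprecipitate (IP) of each genotype, all as stranded libraries. A HAT1 knockdown, named in the design text of the series, was not analysed here. The comparison asks which m6A peaks chromosome-associated RNA carries with and without METTL3.

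One peak list stands for all 4 libraries of a genotype, so no difference below has a replicate check. A peak is a stretch where IP reads exceed the local input. Its fold is the scaled IP pileup plus 1 over the local input plus 1, taken at the summit and written by the authors' peak caller. The whole IP reads behind each summit were recovered from the fold and the p-value. A summit held a median of 24 IP reads in wild type and 30 in the knockout over all peaks. These reads are unscaled, and the lists differ in depth. METTL3 itself had 2 wild-type peaks and no knockout peak, which does not test the deletion because a peak list holds no expression level. Of 6 markers of the HEK293 background, 5 had a peak, all but NEFM. Of 6 markers of other cell types, only PTPRC had one, in the wild-type list and with 7 IP reads. Of all protein-coding genes off X and Y, 48.4% had a peak. Peaks do not measure expression, so these counts do not test the identity of the cells.

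The bases at the start of a gene can be shown for 3 wild-type peaks that reach into the promoter window of a gene described here. RefSeq windows (GRCh38.p14) were tabled for 77 of the 95 genes. Printed are 250 bases upstream of the start and the first 30 transcribed bases, 5′ to 3′ on the strand of the gene, with the bases under the peak in capitals. The runs are those of UBE2M (chromosome 19, 58558582 to 58558861, minus strand), USP32 (chromosome 17, 60392104 to 60392383, minus strand) and USP49 (chromosome 6, 41895109 to 41895388, minus strand). They are shown because they place the peaks on the transcript: none of the 3 covers a base upstream of the tabled start.
UBE2M: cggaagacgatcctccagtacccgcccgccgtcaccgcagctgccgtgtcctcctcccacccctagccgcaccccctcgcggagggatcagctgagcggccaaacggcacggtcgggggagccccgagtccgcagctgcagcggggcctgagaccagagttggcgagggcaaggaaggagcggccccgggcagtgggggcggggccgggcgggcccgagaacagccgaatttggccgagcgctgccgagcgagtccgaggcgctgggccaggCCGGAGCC
USP32: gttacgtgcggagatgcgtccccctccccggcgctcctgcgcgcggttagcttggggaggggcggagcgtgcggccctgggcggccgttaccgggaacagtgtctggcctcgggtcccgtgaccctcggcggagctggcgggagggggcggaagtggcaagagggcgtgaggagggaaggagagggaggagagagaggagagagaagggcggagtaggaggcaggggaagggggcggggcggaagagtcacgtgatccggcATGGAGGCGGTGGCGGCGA
USP49: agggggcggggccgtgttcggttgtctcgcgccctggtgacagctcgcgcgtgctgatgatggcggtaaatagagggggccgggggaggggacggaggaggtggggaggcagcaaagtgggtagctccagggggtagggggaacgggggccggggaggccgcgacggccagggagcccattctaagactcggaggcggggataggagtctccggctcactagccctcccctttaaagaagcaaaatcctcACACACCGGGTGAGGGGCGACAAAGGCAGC

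The USP49 peak began with base 1 of the transcript, the USP32 peak with base 12 and the UBE2M peak with base 23. USP49 codes for a deubiquitinase of histone H2B. That wild-type peak, at 41894939 to 41895138, had a fold of 5.04 from 15 IP reads. Its knockout partner, at 41894819 to 41895037, overlapped it farther into the gene without reaching the start, with a fold of 7.53 from 39 reads. UBE2M, the E2 that carries the ubiquitin-like protein NEDD8 to cullins, had a fold of 7.41 from 107 reads in wild type and no knockout peak anywhere in the gene. USP32, a membrane-bound deubiquitinase, had a fold of 9.89 from 19 reads there in wild type. The tabled USP32 start lies inside the outer RefSeq bounds of the gene, and the summit of that peak is 30.5 kb from the 5′ bound. The upstream stretches were rich in G and C, at 73.6% in UBE2M, 71.2% in USP32 and 66.8% in USP49. The median was 70.4% over the genes with a window and 62.4% over all protein-coding genes with one. The letters GGACT, a core form of the m6A motif, were searched on both strands of each whole 300-base window. UBE2M held them 1 time on the strand of the gene and 2 times on the other strand, and USP32 and USP49 did not hold them. The UBE2M match on the strand of the gene lies past the printed bases, in the part of the window under the peak. The letters were found in 36 of 77 windows here (46.8%) and in 45.8% of 15101 protein-coding windows. Such a match is a description of the letters and not a methylation site.

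Most of these genes carried m6A-IP peaks on chromosome-associated RNA. A peak of either list lay in 75 of 95 genes (78.9%), where the share over all 19126 protein-coding genes off X, Y and the mitochondrial chromosome was 48.4%. The genes with a peak had a median length of 83.1 kb and those without one 20.3 kb. Spearman's correlation of length with the number of peaks was 0.75 over the 95 genes, given as a description, since a longer gene offers more sequence to every peak. The 20 genes without a peak included HERC5, UBE2J2, UBE2V1, UBE2V2, UBE2Z, USP18, USP19, USP22 and USP5. Also among them are UBE2C and UBE2S, the E2 enzymes of the anaphase-promoting complex, and USP7, which acts on p53 and MDM2. USP7 spans 71.8 kb and USP3, a deubiquitinase of histones, 90.0 kb, so not all 20 are short genes.

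The wild-type list held more peaks in these genes than the knockout list, with 69.4 knockout peaks for every 100 wild-type peaks. Over all protein-coding genes off X and Y that number was 80.1. More wild-type than knockout peaks were counted in 41 genes, fewer in 16, and equal numbers in 18. Each family had fewer peaks in the knockout list: 106 against 79 for USP, 59 against 39 for UBE2, 18 against 10 for UBE3, 29 against 19 for UBR and 23 against 16 for HERC. By a 2-sided Fisher's exact test of peak number per gene, with Benjamini-Hochberg adjustment over 12199 genes, 0 of the 75 genes had an adjusted p under 0.05, where 0.0328% of all tested genes did (4 genes). At an unadjusted p under 0.05 there was 1 of the 75, UBR2, against 1.26% of all tested genes (154 genes). Peaks are not replicates, so this test compares the 2 lists and not the genotypes. By the same Fisher's exact test, UBE2D2 with 3 wild-type peaks and no knockout peak had an unadjusted p of 0.257. UBR2, with 6 and 0, had 0.0357. Genes with so few peaks could not reach an adjusted p under 0.05 at any split, so the 0 does not show equal peak numbers. A called peak needs RNA of the gene and IP reads in excess of the local input. A missing peak does not tell less RNA from less m6A or less of another enrichment. The knockout list, without METTL3, still held 23937 peaks with a median fold of 7.06, against 29084 and 7.29 in wild type. Which knockout peaks mark m6A and which mark other enrichment in the IP was not tested.

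Peaks were unevenly spread over the genes. The 10 genes with the most peaks held 168 of the 398 distinct peaks (42.2%). One knockout peak, on chromosome 15 at 50505522 to 50505721, lay in both USP8 and USP50 and was counted in each.

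**Figure D1:**
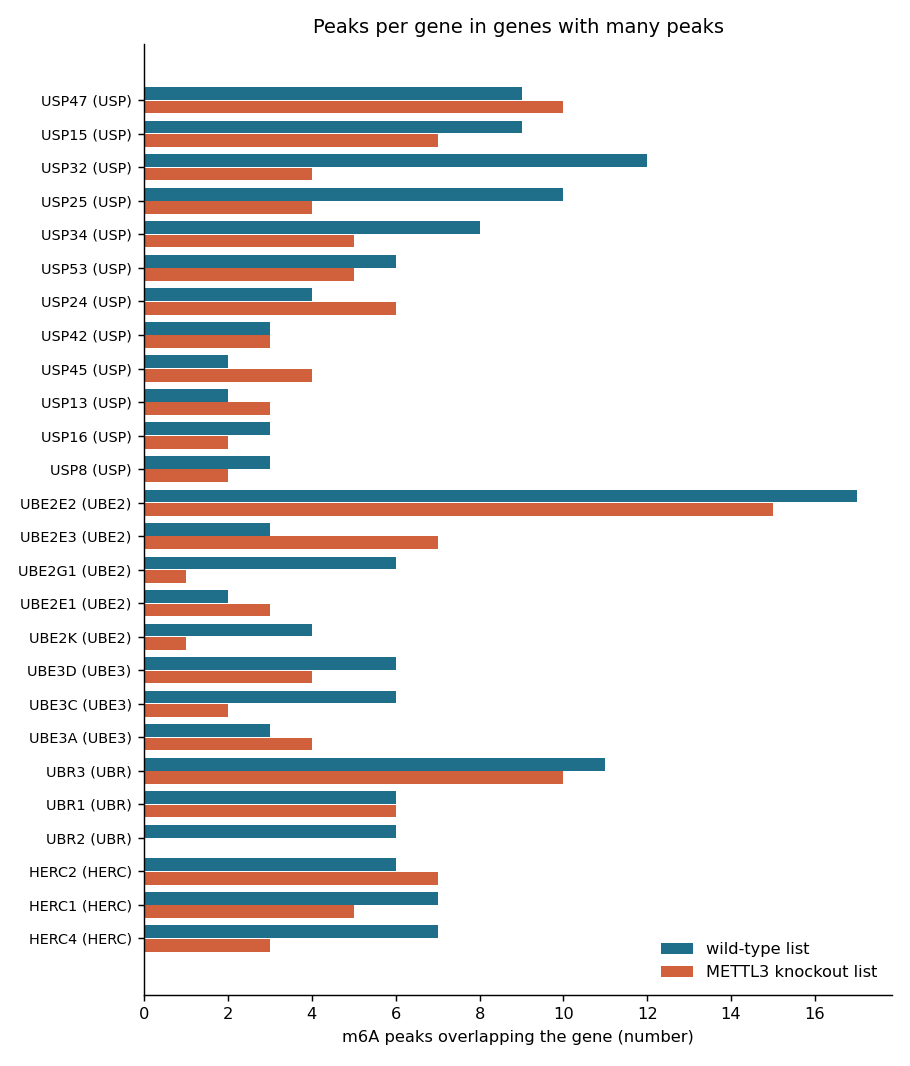
Number of m6A peaks (x axis) in genes with 5 or more peaks in the lists together, with wild-type peaks in blue and METTL3 knockout peaks in orange, grouped by family. UBE2E2 leads with 17 and 15 peaks, UBR2 has 6 wild-type peaks and no knockout peak, and UBE2E3 has 3 and 7.

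Among the E2 enzymes, UBE2E2 carried the most peaks of any gene described here. UBE2E1, UBE2E2 and UBE2E3 are closely related E2 enzymes with an added N-terminal stretch. UBE2E2, on chromosome 3, spans 388.8 kb and held 17 wild-type and 15 knockout peaks, or 4.37 and 3.86 per 100 kb. All lay on the plus strand, the strand of the gene. In each list 7 of them were shared, meaning that a peak of the other list overlapped on the same strand by at least 1 bp. Wild-type folds in UBE2E2 ran from 2.63 to 9.83 on 22 to 133 IP reads. The shared peak of highest wild-type fold, at 23258094 to 23258354, had 9.76 from 127 reads, and its knockout partner had 5.02 from 113. The last shared summit lay 224.3 kb into the gene, and beyond it the wild-type list had 2 peaks and the knockout list 6. The highest knockout fold of the gene was among these, 14.3 from 36 reads at 23550424 to 23550830. A neighbouring wild-type peak at 23551495 to 23551694, with a fold of 8.32 from 34 reads, did not overlap it.

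UBE2E3, on chromosome 2, ran against the direction of its family with 3 wild-type and 7 knockout peaks (Fisher's exact p = 0.202, adjusted p = 1). Its shared peak at 181001370 to 181001752 had nearly the same number of IP reads in each list, 139 and 137, and folds of 5.02 and 4.17. The other shared peak, at 181034320 to 181034544, had 31 reads and a fold of 12.2 in wild type and 47 reads and a fold of 3.92 in the knockout. UBE2E1, on chromosome 3, had 2 wild-type and 3 knockout peaks. The shared one at 23825549 to 23825749 had a fold of 2.13 in wild type and 11.1 in the knockout. Its IP reads were 149 and 137 (scaled IP 90.4 and 65.7), and the local input at the summit was 42.0 and 5.00.

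Of the 22 UBE2 genes with a peak, 12 had more wild-type peaks, 3 more knockout peaks and 7 equal numbers. UBE2G1, an E2 of protein degradation at the endoplasmic reticulum, had 6 wild-type peaks with folds of 5.68 to 8.49 and 1 knockout peak elsewhere in the gene with a fold of 6.32 (Fisher's exact p = 0.137, adjusted p = 1). UBE2K, which builds lysine-48-linked chains, had 4 and 1, and its knockout peak was shared. Wild-type peaks without a knockout peak were found in 9 of the 22 (40.9%), namely UBE2B, UBE2D2, UBE2D3, UBE2G2, UBE2J1, UBE2L3, UBE2M, UBE2R2 and UBE2T. Over all protein-coding genes with a wild-type peak that share was 32.9%. UBE2D2 and UBE2D3 are E2 enzymes used by many ligases, and they had 3 and 2 such peaks. UBE2B, which acts with RAD18 in DNA damage tolerance, had 1 wild-type peak of high fold, 12.9 from 58 reads. UBE2Q2 had 1 peak in each list at different places, 15.2 from 47 reads in wild type and 6.99 from 23 in the knockout. UBE2H, the E2 of the CTLH ligase, had 1 wild-type peak at 10.9 and 2 knockout peaks, at 12.51 and 5.82. The first of these began shortly after the wild-type peak ended, and they were not shared.

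Among the UBE3 ligases, UBE3A combined some of the highest folds in both lists. UBE3A is the ligase whose loss in the maternal copy gives Angelman syndrome. It spans 105.3 kb of chromosome 15 and held 3 wild-type peaks, at folds of 3.14, 11.2 and 15.4, and 4 knockout peaks, at 14.7, 8.78, 7.64 and 5.83. The shared pairs went in opposite directions: the peak at 25404746 to 25405119 had 15.4 in wild type and 7.64 in the knockout, and the one at 25371003 to 25371202 had 3.14 and 8.78. IP reads at these summits were 63 and 71 for the first and 108 and 98 for the second. The scaled IP was 36.0 and 31.1 for the first and 61.8 and 42.9 for the second. All 7 peaks lay on the minus strand, that of UBE3A, in a stretch that the noncoding gene SNHG14 also covers, so none of them counts as a peak in exactly 1 gene. UBE3C, a proteasome-associated ligase, had 6 wild-type and 2 knockout peaks with 1 shared pair, at 7.60 and 6.24. UBE3B had 3 wild-type peaks of low support, 10 to 21 reads, and none in the knockout.

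UBE3D had its peaks in separate parts of the gene apart from 1 shared pair. Its 6 wild-type summits lay between 65.0 and 147.7 kb from the 5′ bound, and its 4 knockout summits between 30.5 and 65.1 kb. The shared pair, at 83000722 to 83000925 on chromosome 6, was the wild-type peak nearest to the start and the knockout peak farthest from it. Its folds were 8.16 and 5.40.

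UBR1 showed this division in full. UBR1 is the founding ligase of the N-degron pathway, and it spans 163.1 kb on the minus strand of chromosome 15. It held 6 wild-type and 6 knockout peaks, none shared. Counted from the 5′ bound, the wild-type summits lay at 90.3, 107.3, 118.0, 131.6, 144.5 and 144.8 kb. The knockout summits lay at 3.16, 21.7, 25.5, 32.4, 40.7 and 47.3 kb. The wild-type peaks thus sat in the 3′ part of the gene, the knockout peaks in the 5′ part, and the ranges did not overlap. Wild-type folds were 5.60 to 9.71 on 10 to 39 reads, and knockout folds 4.41 to 15.2 on 11 to 67 reads. Among protein-coding genes off X and Y with a tabled strand and at least 4 sense peaks in each list, the ranges of the lists were separate in 1 of 797 genes (0.125%), and that gene was UBR1. The minimum of 4 was chosen after the values were seen, and 12 of the 797 genes belong to the families described here.

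UBR2, the closest relative of UBR1, had the smallest p of the genes described here. It had 6 wild-type peaks on the plus strand of chromosome 6, with folds of 6.08 to 8.09 from 14 to 25 reads, and no knockout peak (Fisher's exact p = 0.0357, adjusted p = 1). All 6 are moderate peaks in both fold and reads. Of the 17 genes here with 6 or more wild-type peaks it was the only one without a knockout peak (5.88%), and 2.02% of all protein-coding genes with that many had none. UBR3 held 11 wild-type and 10 knockout peaks in 256.7 kb of chromosome 2, with 4 shared pairs. The pair near its 3′ end, at 170068545 to 170068792, was among the strongest and nearly equal, with folds of 14.8 from 47 reads and 15.05 from 45. The pair at 170047376 to 170047610 had 5.34 from 60 reads in wild type and 13.5 from 39 in the knockout. UBR4, a very large ligase that spans 135.8 kb, had only 1 knockout peak, with a fold of 7.40 from 43 reads, and UBR7 had 1, with 7.90 from 21.

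HERC1, HERC2 and HERC4 held most peaks of the HERC genes. HERC1 and HERC2 code for giant ligases, and HERC2 acts in DNA repair. HERC2, on chromosome 15, had 6 wild-type and 7 knockout peaks with 4 shared pairs. It was the only HERC gene with more peaks in the knockout list. The pair at its 3′ end, 28111696 to 28111967, had folds of 9.04 and 9.31 from 52 and 70 reads. A cluster lay 12.7 to 15.5 kb from the 5′ bound, with 2 wild-type and 4 knockout peaks. Both wild-type peaks of that cluster were shared, with folds of 7.46 and 3.79 against 13.0 and 11.0 in the knockout. HERC1 had 7 and 5 peaks with 2 shared pairs, and HERC4 had 7 and 3 with 2 shared pairs. HERC3 had 1 in each list and HERC6 2 in wild type alone. HERC5, the ligase for the interferon-induced modifier ISG15, had none. HERC3, HERC5 and HERC6 lie next to each other on chromosome 4.

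The deubiquitinases carried the most peaks of the families, and with 45 of the 95 genes they are also the largest. USP47, a regulator of DNA repair and WNT signalling, held 9 wild-type and 10 knockout peaks in 119.9 kb of chromosome 11, with 5 shared pairs. At 7.51 and 8.34 peaks per 100 kb it was more densely covered than UBE2E2. Its pair at 11942525 to 11943042 had the highest wild-type fold of all shared peaks in these genes, 16.1 from 131 reads, against 11.5 from 142 in the knockout. The other pairs of USP47 went both ways, with 3.60 and 9.45 at the peak 45.5 kb from the start, and 12.4 and 5.57 at the peak 57.7 kb from it. USP15, which acts in TGF-beta signalling, had 9 and 7 peaks with 5 shared pairs, so 5 of its 7 knockout peaks lay on a wild-type peak. USP24 had 4 and 6 with 3 shared pairs.

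USP32 and USP25 had many more wild-type than knockout peaks. USP32 had 12 and 4 peaks with 1 shared pair (Fisher's exact p = 0.133, adjusted p = 1). The highest wild-type fold of all peaks here was in a row of 3 wild-type peaks 79.5 to 81.2 kb from its 5′ bound, with folds of 9.70, 12.6 and 17.1 from 22, 29 and 40 reads. No knockout peak lay there. USP25, on chromosome 21, had 10 and 4 with 1 shared pair. Its wild-type summits spanned 3.79 to 146.0 kb from the start, and all 4 knockout summits lay between 53.1 and 67.2 kb. USP34, a WNT pathway deubiquitinase of 283.6 kb, had 8 and 5 peaks with 2 shared pairs, and USP53 had 6 and 5 with 1.

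**Figure D2:**
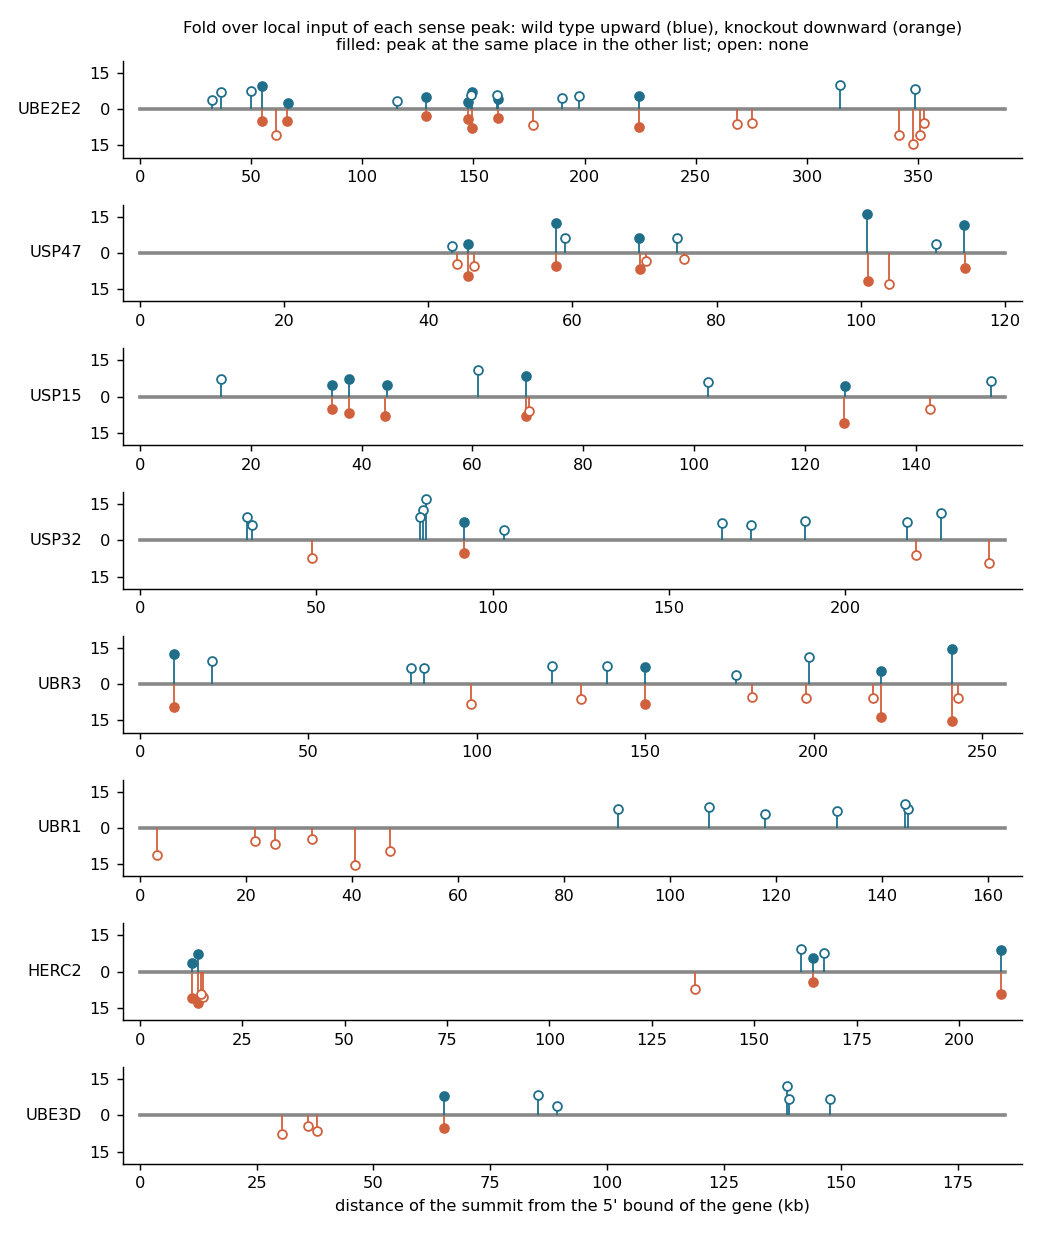
Sense peaks along 8 genes, with the distance of the summit from the 5′ bound of the gene in kb on the x axis and the fold over local input on the y axis, wild type upward in blue and knockout downward in orange. Filled points are shared peaks. In UBR1 the 6 wild-type summits lie at 90.3 kb or more and the 6 knockout summits at 47.3 kb or less, while USP47 and USP15 have 5 filled points in each list.

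Several deubiquitinases had few peaks but strong ones. USP16, a deubiquitinase of histone H2A, spans only 29.8 kb and had 3 wild-type and 2 knockout peaks, with 2 shared pairs. Both had higher folds in wild type, 15.3 against 5.52 and 12.3 against 2.57. USP42 was the reverse, with 2 shared pairs at 5.06 against 17.1 and 4.08 against 13.8. USP8, which acts on endosomal receptors, had a shared pair at 9.84 from 23 reads and 19.5 from 55, the highest knockout fold among the shared peaks. USP12 had a pair at 10.8 and 13.0. USP35 had a pair at 13.1 and 13.4, with 106 and 138 reads. USP30, the deubiquitinase of the outer mitochondrial membrane, had 1 wild-type peak at 14.99 from 28 reads and 1 knockout peak elsewhere at 7.22. Wild-type peaks alone were found in USP2, USP20, USP21, USP33, USP38, USP40, USP46, USP54 and USP6, with 1 or 2 peaks each. USP10 and USP50 had knockout peaks alone, 1 each.

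In all, 71 genes had a wild-type peak, and the knockout list held none in 21 of these (29.6%), and the share over all protein-coding genes was 32.9%. Of the 54 genes with a knockout peak, 4 had no wild-type peak (7.41%), namely USP10, USP50, UBR4 and UBR7, and the share over all protein-coding genes was 23.5%. These shares depend on how many peaks a gene has. With 1 wild-type peak, 9 of 23 genes had no knockout peak (39.1%, against 52.3% of all). With 2 it was 8 of 21 (38.1%, against 32.2%), and with 3 to 5 it was 3 of 10 (30%, against 13.3%), namely UBE2D2, UBE2R2 and UBE3B. Genes with a knockout peak were not split in this way, so the 7.41% and 23.5% are not matched for peak number. No test was run on these shares.

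The lists shared 62 peaks in these genes. This was 26.4% of the wild-type peaks (95% Clopper-Pearson interval 20.9 to 32.5%), where 21.3% of all wild-type peaks in protein-coding genes had a partner. It was 38.04% of the knockout peaks (30.6 to 46.0%), where 26.5% had one. The interval of the wild-type share holds the value of all protein-coding genes and that of the knockout share does not. Both intervals cover counting error only and treat peaks as independent. Shared peaks gathered in some genes, with 7 in UBE2E2, 5 in USP47 and 5 in USP15. The intervals are thus likely too narrow, and whether the knockout share exceeds that of protein-coding genes was not tested. By family, 31 shared pairs lay in USP, 14 in UBE2, 8 in HERC, 5 in UBR and 4 in UBE3 genes. A shared peak was present in 33 genes, and 17 genes had peaks in both lists with none shared, UBR1 being the one with the most peaks.

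The peaks in these genes also rested on more reads. Their summits had a median of 31 IP reads in wild type and 47 in the knockout, where all peaks in protein-coding genes had 26 and 32. Peaks at places where the local input was only the background of the list made up 4.68% and 3.68% here and 11.8% and 14.8% in protein-coding genes. The share with a partner went with the reads: of wild-type peaks with 15 reads or fewer 9.52% had a partner, with 16 to 30 12.2%, with 31 to 60 33.3%, and with 61 or more 52.0%. In protein-coding genes these shares were 5.23%, 11.9%, 27.7% and 56.5%. In the knockout list they were 11.8%, 16.1%, 40.7% and 54.1% here and 6.11%, 13.6%, 27.8% and 56.1% in protein-coding genes. In both lists the share was higher here in every class up to 60 reads and lower with 61 or more. In each of the 8 classes the 95% Clopper-Pearson interval of the share in these genes held the share in all protein-coding genes. The intervals are wide, 1.46 to 36.4% for the 17 knockout peaks with 15 reads or fewer. With 31 to 60 reads the knockout interval began at 27.57%, against 27.77%. Holding the value thus does not show equal shares, and whether reads account for the higher share was not tested.

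**Figure D3:**
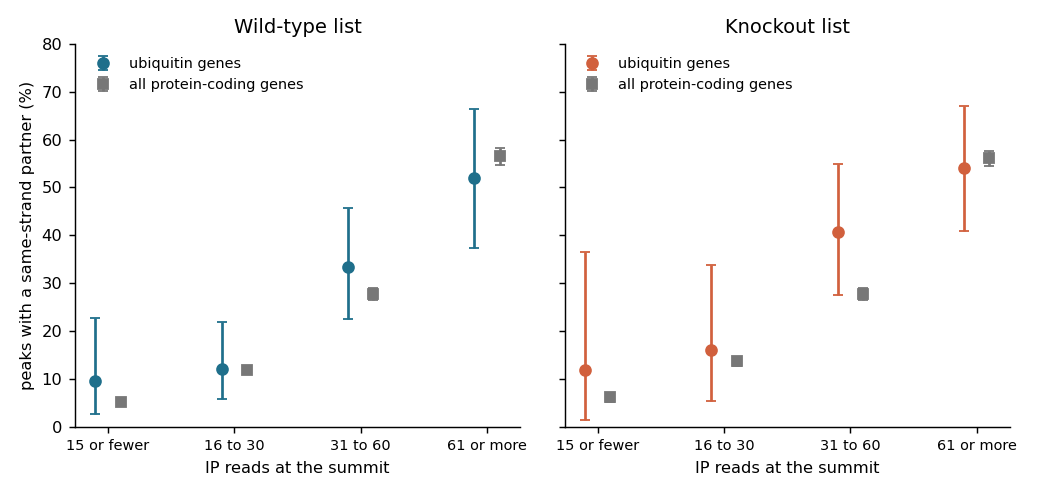
Share of peaks with a same-strand partner in the other list (y axis, percent) by the number of IP reads at the summit (x axis), for the ubiquitin genes (circles) and all protein-coding genes (grey squares), with 95% Clopper-Pearson intervals. With 61 or more reads the shares were 52.0% and 56.5% in the wild-type list and 54.1% and 56.1% in the knockout list.

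Folds at shared peaks went both ways. Over the 62 pairs the median log2 ratio of knockout to wild-type fold was 0.11 (quartiles -0.38 and 0.70), and over all 5947 shared pairs it was 0.02. The knockout fold was the higher one in 36 pairs and the wild-type fold in 26. A difference of at least 2-fold was found in 16 pairs (25.8%), where 20.8% of all shared pairs had one. The knockout was higher in 9 of these and wild type in 7. The extremes were UBE2E1 at 2.39 and a USP16 pair at -2.26 on the log2 scale. Summits of a pair were a median of 37.5 bp apart.

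At most of these pairs the local input differed more between the lists than the IP did. Each was taken plus 1, as it enters the fold, and the SD over the 62 pairs was 0.42 for the log2 ratio of scaled IP and 1.00 for that of local input. Of the 16 pairs past 2-fold, the local input differed more than the IP in 14 (87.5%), and its ratio had the sign opposite to that of the fold in all 16. Over all shared pairs past 2-fold these shares were 81.9% and 95.4%. The fold is the IP term over the input term, and these pairs were picked by fold. An opposite sign of the input is thus largely built in. A pair also needs a called peak in both lists, which limits how far the IP can differ. The source of the fold differences was not tested. In the USP16 pair with folds of 12.3 and 2.57 the IP reads were 39 and 57, and the local input was 1.00 and 10.0. In the USP42 pair with folds of 5.06 and 17.1 the IP reads were 40 and 57, and the local input was 4 and 0.66. The IP differed more in a HERC1 pair, with folds of 3.83 and 9.09, IP reads of 25 and 60 and a local input of 3 and 2. It also did so in the USP47 pair with folds of 3.60 and 9.45, where the IP reads were 28 and 61 and the local input 4 and 2.2. Replicate error of the local input was not tested, as the lists hold no value per replicate.

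**Figure D4:**
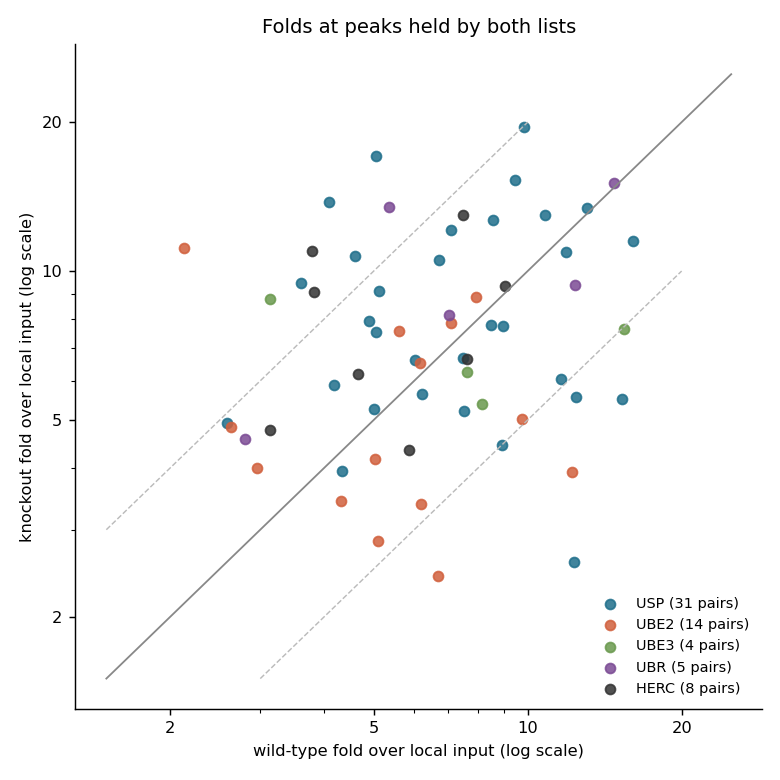
Fold over local input of the 62 shared pairs, wild type on the x axis and knockout on the y axis, both log scaled, coloured by family, with the line of equality and dashed lines at 2-fold. Points lie on both sides of the line, 36 above and 26 below, and 16 lie past 2-fold.

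Folds of all peaks in these genes were like those of each list. The median was 6.90 in wild type (quartiles 5.14 and 8.44; 7.29 over the list) and 6.72 in the knockout (5.44 and 9.13; 7.06 over the list). A peak without a partner was mostly far from the other list: the nearest summit of the other list was a median of 21088 bp away for the 173 wild-type and 10431 bp for the 101 knockout peaks. Of these 13 and 19 lay within 1000 bp of one.

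Nearly all peaks lay on the strand of the gene, which is known here for the 77 genes with a tabled window. The sense share was 199 of 205 in wild type (97.1%; 92.0% in protein-coding genes) and 133 of 140 in the knockout (95%; 91.5%). USP45 stood apart: 2 of its 2 wild-type and 3 of its 4 knockout peaks lay opposite to the gene, among them the shared pair at 99437918 to 99438308 on chromosome 6, with folds of 11.9 and 10.9. UBE2D4 also had a shared pair opposite to the gene, at 43952960 to 43953164 on chromosome 7, with folds of 7.94 and 8.84 and 26 IP reads in each list. Single peaks opposite to the gene lay in USP35 (inside GAB2), USP40 and USP6 in wild type, and in HERC1, HERC3 and USP50 in the knockout. The USP50 peak is the one that lies on the strand of USP8. UBE2W, whose strand was not tabled, had 1 wild-type peak on each strand and 2 knockout peaks on the minus strand. By strand of the genome, wild-type peaks were 131 plus and 104 minus, and knockout peaks 92 plus and 71 minus.

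Along the genes, sense peaks had no preferred end. Of 199 wild-type peaks, 35, 44, 46, 34 and 40 lay in 5 successive parts of equal length from the 5′ end, and of 133 knockout peaks 22, 32, 25, 22 and 32. Within 1000 bp of the 5′ bound there were 4 wild-type peaks (2.01%; 3.11% in protein-coding genes), in UBE2D1, UBE2M, USP39 and USP49, and 2 knockout peaks (1.5%; 2.59%), in USP12 and USP49. Within 1000 bp of the 3′ bound there were 4 wild-type peaks (2.01%; 2.15%) and 1 knockout peak (0.75%; 1.93%).

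Other genes of the pathway were counted for setting, beside the 48.4% of all protein-coding genes that had a peak. Of 8 genes of E1 enzymes, 5 had a peak (62.5%), with 21 wild-type and 11 knockout peaks, of which ATG7 had 12 and 4. The 7 cullins, scaffolds of multi-subunit ligases, had 19 and 9 peaks in 6 genes (85.7%), led by CUL5 with 6 and 1. The 16 HECT ligases outside the rule had 45 and 41 in 14 genes (87.5%), led by ITCH with 10 and 9. Deubiquitinases of other families had 47 and 29 peaks in 23 of 28 genes (82.1%). Of 38 proteasome genes 18 had a peak (47.4%), with 31 and 20 in all, of which PSMA1 had 9 and 7. PSMD14, a deubiquitinase of the proteasome with 4 and 1 peaks, is counted in both of these lists. Of the 4 ubiquitin genes only RPS27A (25%) had peaks, 2 in wild type. Wild-type peaks outnumbered knockout peaks in each of these lists, as they did over all protein-coding genes.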

How the data were processed

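Per the submitters' processing notes, the build was hg38 and the tools were MACS2 2.2.7.1, HISAT2 2.2.1 and SAMtools 1.15.1, run in an order and with settings that those notes as given here do not state. The authors deposited 1 peak list per genotype with position, strand, summit, a display score (not used), a linear fold of IP over local input, and −log10 p and −log10 q as the peak caller gave them. How the 2 replicates of a group were combined is not stated either. Bounds came from a RefSeq table of GRCh38.p14, without exons, and the strand from RefSeq promoter windows, 1 per gene for the shares.

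Computation used SciPy 1.17.1, pandas 2.3.3 and numpy 2.4.6 under Python 3.11.15, with figures from matplotlib 3.10.9. Reads were recovered for at least 99.99% of peaks of each list and strand as whole reads times 1 scale per list and strand (0.607 and 0.572 in wild type, 0.479 and 0.438 in the knockout, plus and minus), within 0.002 reads plus 3e-05 per read. The read recovery, the overlaps and the gene test were tested on simulated data. Genes were named by rule: the 6 with the most peaks per family, the strongest shared and unshared peaks, and those with antisense peaks. Some genes that the rule would name are not reported here. USP24, USP42, USP49, UBE2M and the genes listed without a fold were added after their values were seen. The genes and lists were chosen with earlier results of these data known.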

Additional observations from a re-analysis of the deposited data

How the results depend on the processing

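Neither list holds values per replicate, so no replicate could be left out. No paired analysis was possible because the columns carry no replicate number. Alternatives were an overlap of at least 50% of both peaks, an overlap on either strand, summits within 200 bp, a −log10 q of at least 5, equal numbers of the strongest peaks, peaks in exactly 1 gene, and peaks on the strand of the gene. Of 30 alternative values for the shares, counts and medians, 29 stayed within 1.5 times or within the interval of the main value. The share with a partner ran from 22.6 to 27.4% in wild type and from 31.3 to 38.04% in the knockout. Genes with wild-type peaks alone numbered 19 to 22. With a −log10 q of at least 5 the median wild-type fold was 7.36, against 6.90 without it, and lay just above the upper bound of the interval of the main value (7.361). The gene test called 0 of these genes with peaks in exactly 1 gene, with the stricter q and with equal numbers, the settings it was run under. Genes with few peaks could not be called under any of them, so this 0 is no measure of stability. Of 276 peak counts of named genes under alternatives, 28 moved by over 1.5 times. With equal numbers the knockout list, the shorter one, is kept whole, so its peak counts could not move. They are included in the 276 and the 30. With peaks in exactly 1 gene, UBE3A went from 3 and 4 peaks to 0 and 0, USP8 from 2 to 1 in the knockout and USP50 from 1 to 0. With equal numbers HERC1 went from 7 to 4 and UBE3B from 3 to 1 in wild type, and HERC3 from 1 to 0. With the stricter q USP34 went from 5 to 3 and USP16 and UBE2H from 2 to 1 in the knockout. On the strand of the gene USP45 went from 2 and 4 to 0 and 1. The other moved counts were of 1 or 2 peaks. Depth limits what a missing peak means: peaks on 15 reads or fewer seldom had a partner, so a gene without a knockout peak is not shown to lack m6A there.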
